A study of Mus musculus with 6 samples.

Results

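The genes described here encode the subunits of oxidative phosphorylation in mouse lung fibroblasts. They were chosen by symbol: Nduf genes of the a, b, c, s and v series, Sdha to Sdhd, Uqcr genes, Cox4 to Cox8 genes, Atp5 genes, and the mitochondrial mt-Nd, mt-Co, mt-Cytb and mt-Atp genes. Of 43430 gene identifiers in the count table, 107 carried a matching symbol. Dropping 6 annotated pseudogenes whose symbols end in ps left 101 members, 88 encoded in the nucleus and 13 in mitochondrial DNA (mtDNA). The nuclear members comprised 40 genes of complex I, 4 of complex II, 8 of complex III, 19 of complex IV and 17 of complex V, and the mtDNA members comprised 7, 0, 1, 3 and 2 in the same order. Still among the nuclear members are 4 annotated processed pseudogenes, Ndufa11b, Ndufb4c and Ndufs6b under complex I and Cox6c2 under complex IV.

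Oxidative phosphorylation takes place in the inner mitochondrial membrane. Complex I oxidises NADH and complex II oxidises succinate, and both pass electrons through coenzyme Q to complex III, then through cytochrome c to complex IV, which reduces oxygen. Complexes I, III and IV pump protons, and complex V, the ATP synthase, uses the returning protons to make ATP. Complex II is encoded wholly in the nucleus, while the other complexes are mosaics of nuclear and mtDNA products, so their RNAs come from separate genomes with separate transcription machinery.

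The mice were males of strain C57BL/6J, 9 to 11 weeks of age. The lung fibroblasts were those carrying PDGFRA, a growth factor receptor at the cell surface, isolated in a flow sorter. A group of 9 mice breathed room air, and another group of 9 mice breathed 10% CO2 at normal oxygen for 10 days, an exposure called hypercapnia. Cells of 3 mice were used for each replicate, which gave 3 libraries per group. Following the columns of the count table, the room-air libraries are M1, M2 and M3, and the hypercapnia libraries are M4, M5 and M6. The labels name no transgene or drug, and the column numbers differ from those of the sample titles, so a library is known by its group only. Libraries held 8999780 to 10198336 counts, of which 0.651% to 1.09% fell on mtDNA members and 0.363% to 0.466% on nuclear members. Pdgfra and the collagen genes Col1a1, Col1a2 and Col3a1 lay between 2530 (Pdgfra in M6) and 7553 (Col3a1 in M2) in every library, in counts per 1000000 (CPM). Endothelial markers were also present and differed between libraries: 18 listed genes summed to 3189, 2684 and 864 CPM in M1 to M3 and to 5128, 4008 and 3133 CPM in M4 to M6.

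Of the 13 mtDNA genes, 5 were nearly without counts, and these were the ones whose sequence is repeated almost whole in annotated nuclear copies. Beside mitochondrial chromosome M, the mm10 annotation (GENCODE M21) lists 7 nuclear copies of mtDNA genes in a run of 4663 bases on chromosome 1, chr1:24611535-24616197, minus strand. Further models that repeat part of an mtDNA gene lie on chromosomes 2, 4, 11, 13 and 18. The sequences below show 1 duplicated gene, 1 copy, and 1 gene with no annotated copy of its own. The first 120 bases of mt-Co2, which encodes cytochrome c oxidase subunit 2 (chrM:7013-7132, plus strand), are set above the same stretch of the copy Gm28661 (chr1:24615446-24615565, minus strand). The gene mt-Atp8, which encodes a small membrane subunit of the ATP synthase (chrM:7766-7969, plus strand), is given whole. All lines read 5′ to 3′, and capitals mark the 43 bases that mt-Atp8 shares with the reading frame of mt-Atp6, the proton channel subunit of the ATP synthase.

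mt-Co2: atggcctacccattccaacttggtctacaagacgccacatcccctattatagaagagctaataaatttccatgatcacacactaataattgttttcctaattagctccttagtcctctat
Gm28661: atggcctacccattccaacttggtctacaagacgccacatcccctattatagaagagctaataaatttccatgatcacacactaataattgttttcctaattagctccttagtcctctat
mt-Atp8: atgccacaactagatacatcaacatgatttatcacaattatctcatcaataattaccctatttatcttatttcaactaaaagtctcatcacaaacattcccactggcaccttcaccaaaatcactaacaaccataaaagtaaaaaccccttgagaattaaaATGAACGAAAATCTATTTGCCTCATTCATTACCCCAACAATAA

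Over the 681 aligned bases mt-Co2 and Gm28661 had 0 mismatches, and 0 mismatches were also found between mt-Co3 and Gm28437 (783 aligned bases), mt-Atp6 and Gm10925 (678), mt-Nd3 and Gm28438 (342), mt-Nd4l and Gm10222 (294) and mt-Nd4 and Gm28439 (876). Only mt-Co1 differed from its copy Gm29216, by 1 substitution in 483 aligned bases, A1066T, counted from the first base of mt-Co1. Each mtDNA gene was cut into overlapping windows of 50 bases, and the windows that also occur in the annotated transcript of another gene were counted. No window was shared for mt-Nd1, mt-Nd6, mt-Cytb or mt-Atp8, whose counts over all 6 libraries were 56206, 9690, 96173 and 17313. The last 43 bases of mt-Atp8, fewer than a window holds, also lie in mt-Atp6, which matches its copy Gm10925 from base 1. For mt-Nd5 7.61% and for mt-Nd2 8.19% of windows were shared, and the counts were 42316 and 39841. Those windows lie in copies outside chromosome 1, Gm4076 and Gm11407 for mt-Nd5 and Gm13339 for mt-Nd2. For mt-Co1 51.1% and for mt-Nd4 62.2% were shared, and the counts were 152489 and 31640.

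The remaining 5 genes were shared almost whole and held few counts. They were mt-Nd3 (98.0% of windows, 64 counts in all), mt-Nd4l (98.8%, 91 counts), mt-Atp6 (99.5%, 196 counts), mt-Co3 (99.9%, 40 counts) and mt-Co2 (100%, 266 counts). The mtDNA heavy strand is transcribed as one long precursor, so neighbours such as mt-Atp8, mt-Atp6 and mt-Co3 come from the same transcript, yet the counts per base were 84.9 for mt-Atp8 against 0.288 for mt-Atp6 and 0.051 for mt-Co3. The copies on chromosome 1 held few counts as well, since none of the 7 had more than 6 in a library. On chromosome 2, Gm13340, a copy of mt-Co1, had 2 to 14 counts in a library, and Gm13341, a copy of mt-Co2, had 3 to 7. How reads that match more than one place were treated is not given in the sources used here, so the levels of these 5 genes are uncertain, as are those of mt-Co1 and mt-Nd4 in part. Between Gm10925 and Gm28661 lie 233 bases with no annotated copy, at the place that corresponds to mt-Atp8 up to its overlap with mt-Atp6. The nuclear genome sequence itself was not searched.

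**Figure D1:**
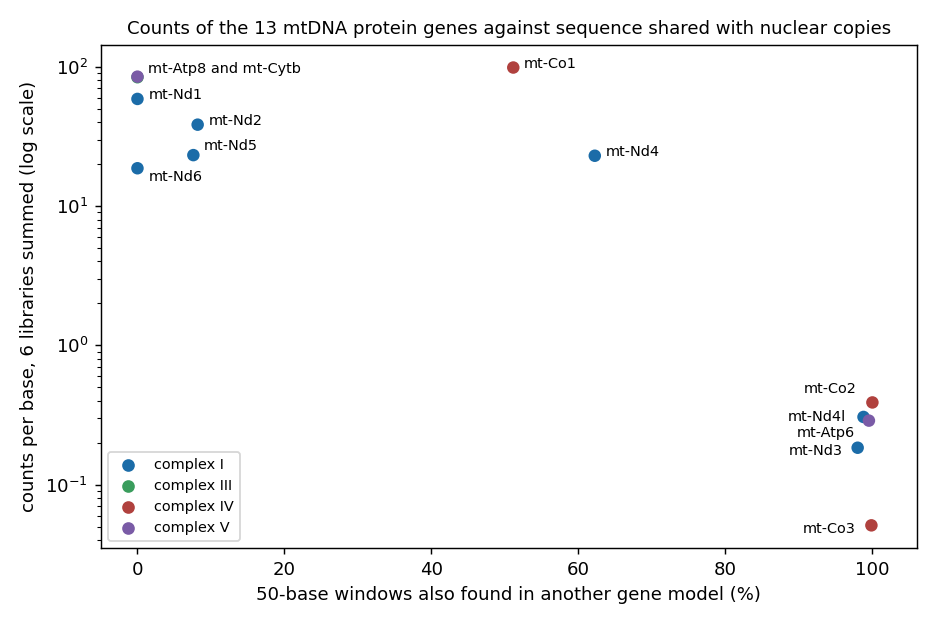
Counts per base summed over the 6 libraries (y axis, log scale) of the 13 mtDNA protein genes against the percentage of their 50-base windows that also occur in another annotated gene (x axis), coloured by complex. The 5 genes at 98.0% or more lie below 1 count per base, and the other 8 lie between 18.7 and 98.7.

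Among the mtDNA genes with deep counts, levels per length were above those of every nuclear member. On the scale of CPM per kilobase of exon, mt-Co1, the catalytic subunit of complex IV, stood at 1752 ± 465 (SD, n = 3 here and below) in room air. It was followed by mt-Atp8 at 1547 ± 294, mt-Cytb, the cytochrome b of complex III, at 1532 ± 454, and the complex I subunits mt-Nd1 at 1064 ± 282, mt-Nd2 at 732 ± 183, mt-Nd4 at 433 ± 142, mt-Nd5 at 427 ± 142 and mt-Nd6 at 343 ± 121. Of neighbours in this order, mt-Nd1 lay below mt-Cytb, mt-Nd2 below mt-Nd1 and mt-Nd4 below mt-Nd2 by more than the SD of either. The other neighbours differed by less. The lengths include shared windows, 62.2% of those of mt-Nd4 and 51.1% of those of mt-Co1, so the places of these genes in the order are uncertain. The length of mt-Atp8 includes the 43 bases that it shares with mt-Atp6. The highest nuclear member per length was Cox6a1 of complex IV at 142 ± 4.05, followed by Atp5a1 of complex V at 128 ± 9.45. Lengths are the merged exons of all annotated transcripts of a gene, 702 bases for Cox6a1 and 3135 for Atp5a1. Before division by length Cox6a1 had 99.9 CPM in room air and Atp5a1 had 400, so this order depends on the annotated lengths.

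No mtDNA gene changed past the threshold with hypercapnia. Each of the 12 tested mtDNA members missed it in edgeR's quasi-likelihood test with Benjamini-Hochberg adjustment, the smallest adjusted p being 0.601, and 0 had an unadjusted p under 0.05. Gene mt-Co1 had 2361, 2226 and 3533 CPM in room air against 2385, 2505 and 2966 in hypercapnia. The room-air library M3 was the highest of all 6, and the groups overlapped. The log2 fold change of mt-Co1 was −0.05 ± 0.17 (SE), with a 95% interval of −0.41 to 0.32.

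M3 was also on top for the other mtDNA genes with deep counts. For mt-Cytb the values were 1512, 1398 and 2349 CPM against 1482, 1530 and 1816, a log2 fold change of −0.12 ± 0.18. For mt-Nd1 they were 906, 822 and 1326 CPM against 816, 946 and 1072 (−0.11 ± 0.17). For mt-Atp8 they were 271, 292 and 384 CPM against 249, 288 and 329 (−0.13 ± 0.15). In all of these, as in mt-Co1, M3 was the highest library and M6 came next, one from each group. The log2 fold changes of the remaining complex I genes were −0.25 ± 0.16 for mt-Nd2, −0.22 ± 0.19 for mt-Nd4, −0.16 ± 0.21 for mt-Nd5 and −0.16 ± 0.23 for mt-Nd6, and their groups overlapped. The 4 tested genes with duplicated sequence had levels under 7 CPM and wide errors: 0.16 ± 1.002 for mt-Nd3, −0.55 ± 0.60 for mt-Nd4l, 0.15 ± 0.48 for mt-Co2 and −0.20 ± 0.47 for mt-Atp6. The count of mt-Co3, between 4 and 9 in every library, was too low to test.

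The median log2 fold change of the 12 tested mtDNA members was −0.14, with 2 positive and 10 negative, beside 0.01 for all 13005 genes tested. This median rested on library M3: it was 0.13 without M3, with 10 of 12 positive, and 0.03 without M3 and M6. Leaving out M1 or M2 instead gave −0.33 and −0.25. The summed level of the mtDNA members was 6944, 6677 and 10731 CPM in M1 to M3 and 6755, 7252 and 8422 CPM in M4 to M6, or 8117 ± 2267 against 7476 ± 856. The spread within room air exceeded the difference between the groups.

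Nuclear members are transcribed one by one, and their promoters are known for binding sites of NRF-1, of GABP, an ETS-family factor also called NRF-2, and of YY1. RefSeq promoter windows of 300 bases (250 before the start and 50 after, GRCm38.p6) were found for 68 of the 84 protein-coding nuclear members. These members had 73 windows, and 3 motifs were searched on both strands. The NRF-1 core CGCANGCG was found in 38.4% of the member windows and in 8.21% of all 32851 windows in the table. The GABP site CCGGAAG was found in 21.9% and 8.86%, and the YY1 core AAGATGGC in 13.7% and 2.75%. At least 1 of the motifs, none of which overlap in the windows printed here, occurred in 42 of the 68 members, and 26 had none. The 3 windows below, chosen after the matches were seen, show each motif in capitals on the gene's strand. They belong to Uqcrc1, a core subunit of complex III (chr9:108936398-108936697, plus strand, NRF-1 core at 2 places), Cox6b1 of complex IV (chr7:30626065-30626364, minus strand, GABP site), and Atp5j, coupling factor 6 of complex V (chr16:84834927-84835226, minus strand, all 3 motifs). Atp5j has 2 windows in the table, and the other, chr16:84835576-84835875, holds 0 matches of any of the 3. The gene opposite Atp5j is Gabpa, which encodes the DNA-binding subunit of GABP.

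Uqcrc1: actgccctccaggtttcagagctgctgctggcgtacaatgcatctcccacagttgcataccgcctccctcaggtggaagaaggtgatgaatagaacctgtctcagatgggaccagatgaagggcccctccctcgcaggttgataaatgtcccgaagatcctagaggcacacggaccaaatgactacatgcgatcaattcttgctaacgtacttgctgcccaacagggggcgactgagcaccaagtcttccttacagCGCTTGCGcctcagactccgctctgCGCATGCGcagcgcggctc
Cox6b1: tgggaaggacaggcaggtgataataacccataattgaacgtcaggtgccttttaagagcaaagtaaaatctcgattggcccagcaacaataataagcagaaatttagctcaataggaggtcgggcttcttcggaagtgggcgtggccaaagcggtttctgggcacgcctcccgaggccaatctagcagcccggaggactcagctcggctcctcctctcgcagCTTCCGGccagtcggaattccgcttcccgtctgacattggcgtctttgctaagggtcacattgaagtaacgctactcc
Atp5j: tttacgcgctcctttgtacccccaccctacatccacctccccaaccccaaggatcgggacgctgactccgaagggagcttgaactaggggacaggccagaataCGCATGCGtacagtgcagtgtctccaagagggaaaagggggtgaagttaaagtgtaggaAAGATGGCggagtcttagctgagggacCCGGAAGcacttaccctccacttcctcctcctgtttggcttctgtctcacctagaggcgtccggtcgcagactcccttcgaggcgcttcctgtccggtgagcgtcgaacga

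The matches are letters in a window and say nothing of binding in these cells. None of these genes passed the test in either direction. Uqcrc1 had 93.1, 99.4 and 97.3 CPM in room air against 91.3, 94.2 and 102 in hypercapnia, a log2 fold change of −0.01 ± 0.10. Atp5j had 68.9, 62.0 and 66.4 CPM against 55.7, 57.0 and 68.9 (−0.12 ± 0.12). Of its exonic bases 12.7% overlap Gabpa, and the strand setting of the counting is not given.

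Across the nuclear members, no gene rose or fell past the threshold with hypercapnia. Of all 101 members, 91 passed the filter on low counts (79 nuclear, 12 mtDNA), and 0 were called higher and 0 lower at an adjusted p under 0.05 in edgeR's quasi-likelihood test, where 159 of the 13005 tested genes, or 1.22%, were called. None of the 91 had an unadjusted p under 0.05 in edgeR, while DESeq2 and limma-voom each gave 1 such member and again 0 calls. The groups did not overlap for 1 member in the upward direction, Ndufa4l2, and for 1 in the downward direction, Atp5g1, whereas 9.28% of all tested genes did not overlap upward and 8.74% did not overlap downward. The log2 fold change was positive for 31 and negative for 48 of the 79 tested nuclear members, with a median of −0.03. That median had no stable sign: it was 0.04 without M3, 0.02 without M4, 0.03 without M5 and −0.13 without M6, and 0.03 on total counts alone, where the median of all genes was 0.07. For 85 of the 91 tested members the 95% interval lay inside a 2-fold change in either direction, and for 59 it lay inside 1.5-fold, each interval taken gene by gene with no adjustment. In bulk libraries, fewer cells with a given RNA and less of it per cell cannot be told apart.

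**Figure D2:**
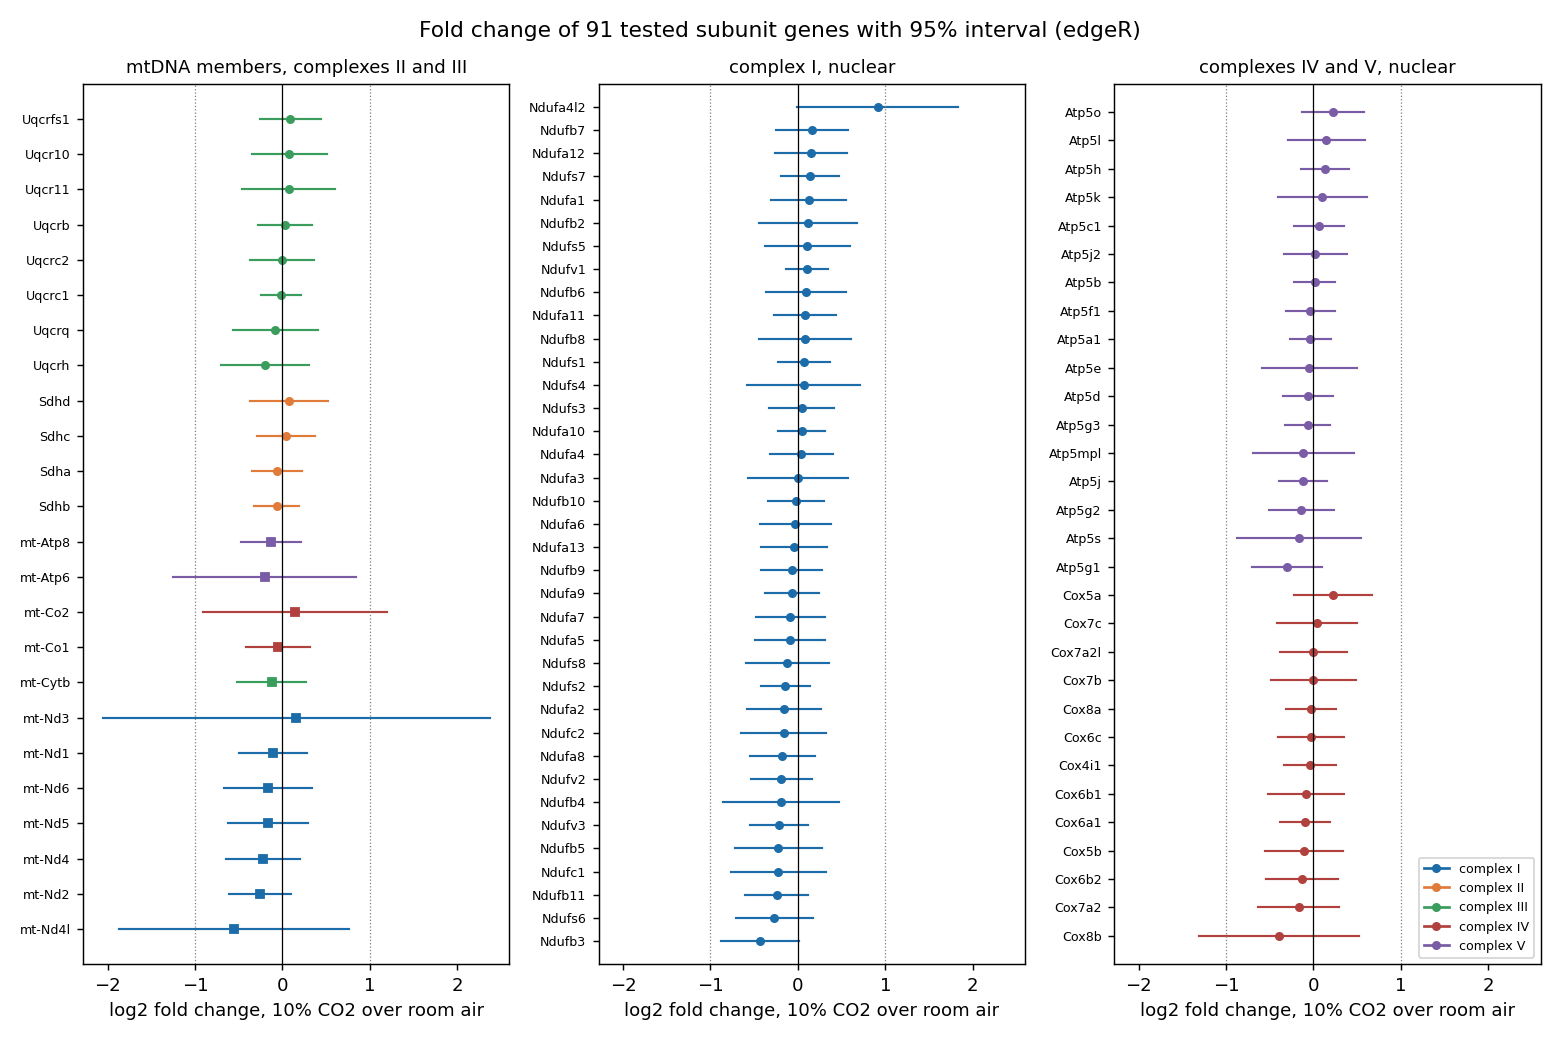
Log2 fold change of hypercapnia over room air (x axis) with its 95% interval from edgeR, for the 91 tested members, ordered within each genome and complex; squares are mtDNA members, circles nuclear members, and dotted lines mark a 2-fold change. All intervals include 0, and the widest belong to members with low counts, such as mt-Nd3 and Cox8b.

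In complex I, 37 of 40 nuclear members were tested, and the median log2 fold change was −0.03. The largest difference of any member was that of Ndufa4l2 (chr10:127514967-127517154, plus strand), a hypoxia-inducible paralogue of Ndufa4. Its level was 3.42, 1.68 and 4.35 CPM in room air (29, 16 and 41 counts) and 5.24, 6.30 and 6.28 CPM in hypercapnia (46, 64 and 67 counts). All hypercapnia libraries lay above all room-air libraries, with M2 the lowest. The log2 fold change was 0.91 ± 0.42, the 95% interval ran from −0.01 to 1.84, and the adjusted p of 0.420 (edgeR) missed the threshold. Over 15 alternative settings the fold change stayed between 0.61 and 1.35, and the smallest adjusted p was 0.261.

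Ndufa4l2 is also known as a marker of pericytes, the mural cells of small vessels, and it stood in the pericyte marker list. The 9 markers of that list that are not members summed to 369 to 400 CPM in room air against 444 to 531 in hypercapnia. These 9 include Pdgfrb, which was also listed as a fibroblast marker, so the sum is not particular to pericytes. Of the 7 that were tested, 5 had a positive fold change and 0 were called. The other 2 were negative, the lower of them at −0.14 on the log2 scale. The channel genes Abcc9 (0.54 on the log2 scale, edgeR adjusted p = 0.068) and Kcnj8 (0.73, edgeR adjusted p = 0.084) and the receptor gene Notch3 (0.46) lay higher in all hypercapnia libraries than in all room-air libraries. Rgs5 had 0.21 to 4.60 CPM and a log2 fold change of 0.93 with overlapping groups, and Higd1b reached at most 0.53 CPM. The 18 endothelial markers all had a positive fold change, with a median of 0.88, and 0 of them were called. Smooth muscle markers went mostly the other way, 1 positive and 5 negative of 6 tested, with a median of −0.28 and 0 called. The part of these cell types in the Ndufa4l2 difference was not tested. Ndufa4 itself, an abundant protein first placed in complex I and now assigned to complex IV, had 42.0, 42.6 and 53.7 CPM against 40.6, 44.8 and 56.4, a log2 fold change of 0.04 ± 0.16.

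At the other end of complex I, Ndufb3, an accessory subunit of the membrane arm, had 30.4, 26.7 and 37.5 CPM in room air against 24.8, 17.8 and 27.6 in hypercapnia. M5 was the lowest library, and the groups overlapped narrowly, M6 lying above M2. Its log2 fold change was −0.43 ± 0.20 (edgeR adjusted p = 0.437), and it stayed negative under all 15 alternatives, between −0.57 and −0.19. Ndufs6, an accessory subunit of the peripheral arm, had a log2 fold change of −0.27 ± 0.20, and Ndufb11, an accessory membrane subunit and the highest nuclear complex I member per length at 70.1 ± 11.5 CPM per kilobase in room air, had −0.24 ± 0.16. Part of Ndufb11, 12.9% of its exonic bases, overlaps Rbm10. Ndufb7, also of the membrane arm, had 0.16 ± 0.19. The nuclear core subunits, which hold the flavin and the iron-sulphur clusters and were singled out after their values were seen, ranged from −0.19 ± 0.16 for Ndufv2 to 0.14 ± 0.15 for Ndufs7.

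Log2 fold changes in complex II lay between −0.06 and 0.08, a narrower range than in any other complex. Complex II also has the fewest nuclear members, 4, and a range tends to widen with the number of genes. Sdha, the flavoprotein that oxidises succinate, had 213, 238 and 187 CPM in room air against 205, 225 and 182 in hypercapnia. M3 and M6 were its lowest libraries, the reverse of most other members, and the log2 fold change was −0.06 ± 0.13. Sdhb, the iron-sulphur subunit, spanned only 48.3 to 53.3 CPM over all 6 libraries (−0.06 ± 0.12). The membrane anchors had log2 fold changes of 0.04 ± 0.15 (Sdhc) and 0.08 ± 0.20 (Sdhd). The summed level of the 4 genes was 350 ± 15.1 CPM in room air against 343 ± 9.02 in hypercapnia.

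The 8 nuclear members of complex III had a median log2 fold change of 0.01. Uqcrfs1, the Rieske iron-sulphur protein, had 36.3, 39.6 and 43.7 CPM in room air against 43.9, 35.04 and 48.6 in hypercapnia (0.09 ± 0.16). Uqcrh, the acidic hinge protein that contacts cytochrome c1, had 33.2, 29.9 and 34.2 CPM against 25.6, 19.9 and 39.4 (−0.19 ± 0.23). Both genes had M5 low and M6 high, and the spread within hypercapnia covered the room-air values. Uqcr10, the highest member per length at 48.3 ± 7.81 CPM per kilobase in room air, and Uqcrq, both small accessory subunits, had log2 fold changes of 0.08 ± 0.19 and −0.08 ± 0.22.

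In complex IV, 13 of 19 nuclear members were tested, 2 positive and 11 negative, with a median of −0.04. Cox5a had the largest positive value, from 18.6, 13.1 and 13.8 CPM to 18.2, 17.4 and 17.5 CPM (0.22 ± 0.20). Of its exonic bases 12.8% overlap an antisense gene model. Cox7c had 0.04 ± 0.21, and the largest negative values were those of Cox8b (−0.40 ± 0.41) and Cox7a2 (−0.17 ± 0.21).

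Complex IV is also the complex with the most tissue-specific isoforms, and the fibroblasts mostly counted the ubiquitous ones. Cox4i1, the ubiquitous form of subunit 4, had 126, 125 and 149 CPM in room air against 114, 123 and 151 in hypercapnia, while Cox4i2, the form known from lung and from hypoxia, stayed between 0.34 and 1.87 CPM. Per kilobase in room air this was 86.0 ± 8.81 against 0.95 ± 0.48. Cox6a1 had 97.6, 103 and 99.1 CPM against 83.0, 86.1 and 110, and the heart and muscle form Cox6a2 had no count. For subunit 8, Cox8a stood at 58.0 to 67.0 CPM in room air against 54.1 to 70.4 in hypercapnia, the muscle form Cox8b at 3.19 to 5.36 and 2.76 to 3.65 CPM, and the testis form Cox8c at 0 counts. Per kilobase in room air Cox8a stood at 101 ± 7.25 and Cox8b at 11.5 ± 3.07. For subunit 7a, the muscle form Cox7a1 reached at most 1.79 CPM, beside 22.4 to 39.4 CPM for Cox7a2 and 45.5 to 73.5 CPM for the related Cox7a2l. Per kilobase in room air these were 1.81 ± 1.32, 32.8 ± 8.98 and 41.9 ± 9.90. Cox7b2, a testis form, had 0 counts in 4 libraries and at most 0.37 CPM, beside 17.3 to 32.1 CPM for Cox7b.

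Subunit 6b was the exception. Cox6b2 (chr7:4751792-4753094, minus strand), known as the testis isoform, had 30.6, 43.3 and 38.1 CPM in room air against 34.4, 27.5 and 40.6 in hypercapnia. Cox6b1, the ubiquitous form, had 34.3, 41.9 and 42.9 CPM against 34.1, 29.1 and 49.0. Per kilobase in room air they stood at 33.7 ± 5.78 for Cox6b2 and 56.1 ± 6.61 for Cox6b1, with no overlap in annotated exons for either gene. The merged exon lengths were 1108 and 708 bases, and the room-air means before division by length were 37.3 and 39.7 CPM. Neither differed between the groups beyond the spread of the libraries, with log2 fold changes of −0.13 ± 0.19 and −0.09 ± 0.20. Markers of heart muscle and brown fat, tissues rich in mitochondria, were uneven. The 12 cardiac markers summed to 8.60 to 11.6 CPM in room air against 12.5 to 22.4 in hypercapnia. Only 2 of them passed the filter: Myl4 at 1.59 to 3.84 CPM, and Tnnc1, troponin C of heart and slow muscle, at 3.78, 5.36 and 3.93 CPM in room air against 7.41, 8.66 and 13.4 in hypercapnia, with no overlap (1.17 on the log2 scale, edgeR adjusted p = 0.150). Sln and Csrp3 had no count, and Myh6 reached at most 1.18 CPM. The 8 brown adipocyte markers summed to 13.8 to 18.2 CPM against 5.36 to 10.9, nearly all of it from Dio2 (13.7 to 17.3 against 4.90 to 10.03), while Ucp1, Cidea, Elovl3, Adipoq and Otop1 had no count. Their part in the levels of the isoforms was not tested.

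**Figure D3:**
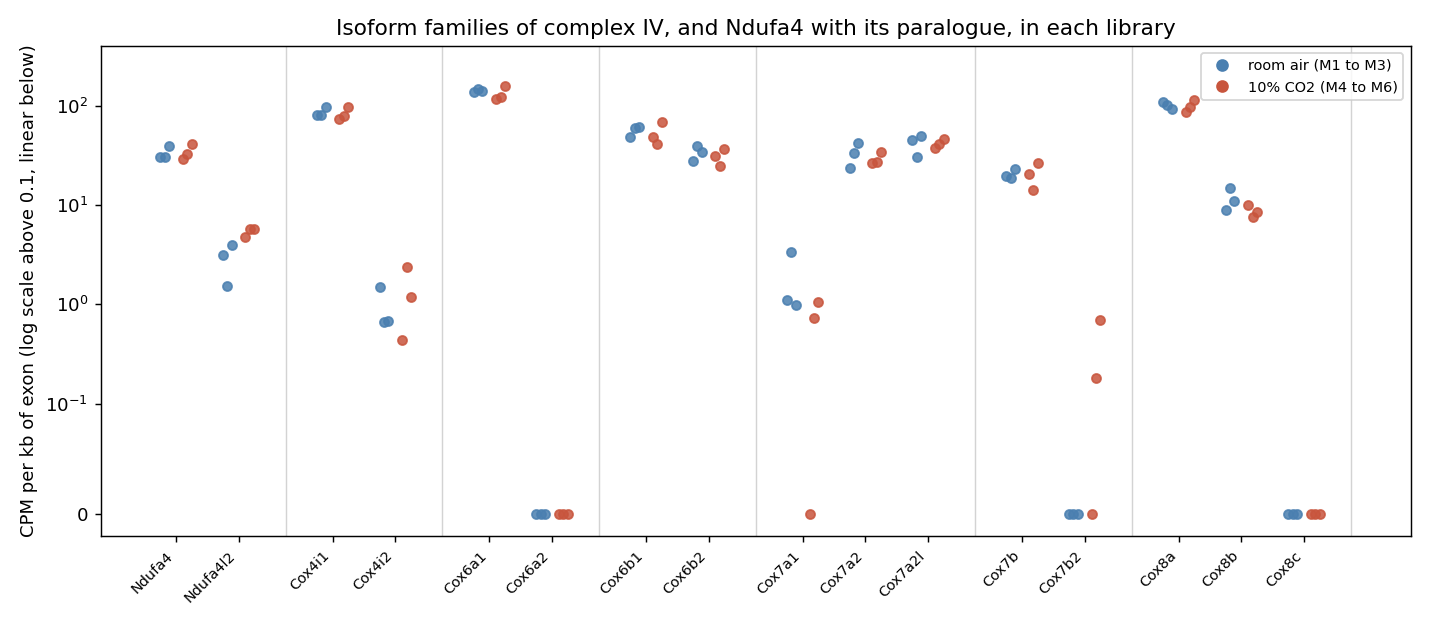
Level in CPM per kilobase of exon (y axis, logarithmic above 0.1 and linear below) of each isoform of Ndufa4 and of complex IV subunits 4, 6a, 6b, 7a, 7b and 8 in each library, room air in blue and hypercapnia in red. Cox6b2 lies below Cox6b1, with room-air means of 33.7 and 56.1, while Cox4i2, Cox6a2, Cox7a1, Cox7b2 and Cox8c lie below 5.

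All 17 nuclear members of complex V were tested, 7 positive and 10 negative, with a median log2 fold change of −0.04. Atp5a1 and Atp5b encode the alpha and beta subunits that form the catalytic head. Atp5a1 had 399, 430 and 371 CPM in room air against 379, 401 and 391 in hypercapnia (−0.04 ± 0.11), and Atp5b had 377, 369 and 351 CPM against 349, 362 and 396 (0.01 ± 0.11). Both had narrow 95% intervals, −0.27 to 0.20 and −0.22 to 0.25. The groups overlapped for both genes.

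The rotor ring of complex V is built from subunit c, for which Atp5g1, Atp5g2 and Atp5g3 encode the same mature protein behind different import signals. Atp5g1 had 24.1, 27.1 and 25.7 CPM in room air against 22.7, 16.4 and 23.4 in hypercapnia. All hypercapnia libraries lay below all room-air libraries, by the least margin between M1 and M6, but the log2 fold change of −0.30 ± 0.18 missed the threshold (edgeR adjusted p = 0.580). It was negative under all 15 alternatives. Atp5g3, the highest of the 3 per length at 38.1 ± 0.894 CPM per kilobase in room air, had −0.06 ± 0.12, and Atp5g2 had −0.14 ± 0.17. For Atp5g2 38.3% of the 50-base windows also occur in other gene models.

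Of the remaining complex V members, Atp5o, the stalk subunit that confers oligomycin sensitivity, had the largest positive value, from 35.98, 37.1 and 44.4 CPM to 38.2, 44.98 and 54.0 CPM (0.22 ± 0.16). Its level is uncertain, since 47.9% of its exonic bases overlap other gene models. Atp5l, the membrane subunit g, had 0.15 ± 0.20, and Atp5s, named coupling factor B, stood at only 5.12 to 8.38 CPM with −0.16 ± 0.32. The members with no count were Cox6a2, Cox8c and the annotated processed pseudogenes Cox6c2, Ndufb4c and Ndufs6b, and the pseudogene Ndufa11b was also too low to test.

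Most members lay high in M3 and M6 and low in M4 and M5, while nuclear members were less uniform in M1 and M2. Each tested member was expressed as its log2 CPM minus its own mean over the 6 libraries. The median of the 79 nuclear members was −0.07, −0.02 and 0.13 in M1 to M3 and −0.10, −0.12 and 0.21 in M4 to M6. In M3 66 of 79 and in M6 72 of 79 lay above their mean, against 29, 35, 16 and 15 in M1, M2, M4 and M5. For the 12 mtDNA members the medians were −0.22, −0.10 and 0.51 in room air and −0.21, −0.05 and 0.14 in hypercapnia, with 12 of 12 above their mean in M3. The median of all tested genes stayed between 0.01 and 0.03 in every library.

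**Figure D4:**
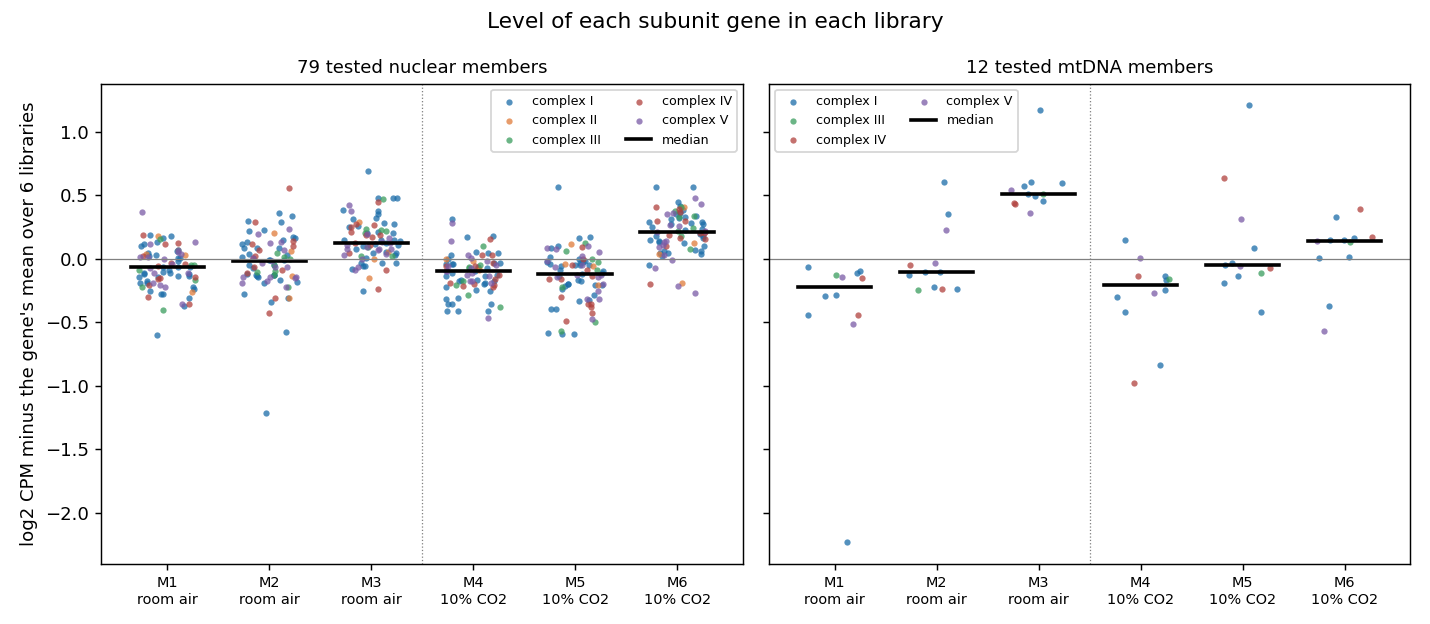
Log2 CPM of each tested member minus its mean over the 6 libraries (y axis) in each library (x axis), for 79 nuclear members (left) and 12 mtDNA members (right), coloured by complex; black bars are medians. M3 of room air and M6 of hypercapnia lie above the others for nuclear members, and M3 lies highest for mtDNA members, with a median of 0.51.

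The medians in M3 and M6 were above 0 in every nuclear complex. They were 0.14 and 0.23 for complex I, 0.21 and 0.29 for complex III, 0.19 and 0.20 for complex IV and 0.08 and 0.14 for complex V, but 0.03 and 0.08 for the 4 genes of complex II. Members with at most 1587 exonic bases, the median length, had 0.18 and 0.23, and longer members had 0.09 and 0.14. Genes outside oxidative phosphorylation did the same. A set of 62 genes with symbols of Rpl or Rps plus a digit had medians of 0.12 in M3 and 0.22 in M6. That symbol rule takes cytosolic ribosomal proteins but also matches S6 kinase genes. For 50 mitochondrial ribosomal protein genes the medians were 0.10 and 0.19. Markers of other cell types did not follow both libraries. Summed endothelial markers were lowest in M3, 864 CPM, and in M6 they were the lowest of the hypercapnia group, 3133 CPM, but above the 2684 CPM of M2. Alveolar type 2 cell markers, 121 CPM, and leukocyte markers, 11.2 CPM, were also lowest in M3, while M6 had 339 and 54.8 CPM, within the range of the other libraries. Their part in the pattern was not tested. With the mean level of the endothelial markers as a covariate in edgeR, the median log2 fold change of nuclear members became 0.11. That of mtDNA members became 0.32, with 57 of 79 and 11 of 12 positive. In that edgeR fit 10 of 91 members had an unadjusted p under 0.05, beside 2066 of all 13005 tested genes. Of the members 0 were called, and the smallest adjusted p was 0.134.

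The summed level of the nuclear members gave the same picture by complex. All 88 together had 3921, 4030 and 4266 CPM in room air against 3727, 3786 and 4458 in hypercapnia, or 4072 ± 177 against 3990 ± 406. Complex I had 1304 ± 105 against 1263 ± 166, complex III 367 ± 32.0 against 366 ± 52.1, complex IV 630 ± 46.6 against 608 ± 98.8 and complex V 1421 ± 9.07 against 1411 ± 96.0 CPM. In each complex the difference was smaller than the larger SD of the 2 groups.

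The genes that build, feed and regulate the complexes were also without a call. Of 9 tested electron carriers and subunits outside the symbol rule, 2 had positive and 7 negative fold changes, with a median of −0.14. Cycs, cytochrome c, had 21.8, 21.8 and 16.8 CPM in room air against 15.7, 16.7 and 15.7 in hypercapnia, with no overlap (−0.32 ± 0.19, edgeR adjusted p = 0.548). Etfa, which feeds electrons from fatty acid oxidation to coenzyme Q, had 105, 126 and 125 CPM against 98.8, 102 and 103, also with no overlap (−0.23 ± 0.11, edgeR adjusted p = 0.467).

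Of 13 tested genes of coenzyme Q synthesis, 8 were positive and 5 negative. Coq8a, an atypical kinase of the synthesis complex, had 11.3, 14.2 and 17.3 CPM in room air against 18.8, 32.5 and 21.4 in hypercapnia, or 0.76 ± 0.25 on the log2 scale (edgeR adjusted p = 0.206). Coq9, a lipid-binding partner of the pathway, had 0.32 ± 0.17. Among 49 tested assembly factors, 21 were positive and 28 negative. Atpaf1, a chaperone of the ATP synthase beta subunit, had 11.6, 12.9 and 10.3 CPM against 14.8, 22.0 and 14.4 (0.56 ± 0.23, edgeR adjusted p = 0.362).

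Regulators of mitochondrial biogenesis went in both directions, 3 of 7 tested positive and 4 negative. Pprc1, a coactivator of the PGC-1 family that works with NRF-1, had 32.8, 26.3 and 31.1 CPM in room air against 22.4, 23.1 and 20.1 in hypercapnia. All hypercapnia libraries lay below all room-air libraries, a difference of −0.46 ± 0.16 on the log2 scale (edgeR adjusted p = 0.252). Gabpb1, the beta subunit of GABP, had −0.39 ± 0.20. In 2 genes, named after their values were seen, all hypercapnia libraries lay above all room-air libraries. Ppargc1a, which encodes the coactivator PGC-1 alpha, was low, at 0.94, 0.63 and 0.85 CPM against 1.37, 1.28 and 1.31 (0.70 ± 0.62). Esrra, the nuclear receptor ERR alpha, had 22.9, 27.2 and 27.2 CPM against 27.5, 29.6 and 28.1 (0.14 ± 0.15). Of all 13005 tested genes, 9.28% lay apart upward in this way and 8.74% downward. Of 20 tested genes of mtDNA replication, transcription and translation, 8 were positive and 12 negative, with Polg, the mtDNA polymerase, at 0.19 ± 0.13 and Fastkd5, an mtDNA RNA-processing factor, at −0.56 ± 0.46. Of 50 tested mitochondrial ribosomal proteins, 27 were positive and 23 negative, with Mrpl23 at −0.52 ± 0.24 and Mrpl41 at 0.51 ± 0.26. Of 4 tested carriers and uncoupling proteins, Ucp2 had 0.60 ± 0.43 and Slc25a4, the adenine nucleotide translocator of muscle, −0.09 ± 0.12.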

How the data were processed

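RNA-seq was run on PDGFRA-sorted lung fibroblasts, 3 libraries in room air and 3 after 10 days of 10% CO2. The deposited table holds raw read counts per Ensembl gene. Per the submitters' processing notes, TopHat2 2.1.0, HTSeq, FastQC and bcl2fastq 2.17.1.14 were used, with build mm10. Annotation release, strand setting and treatment of reads with several matches: not given in the sources used here. Symbols, exon lengths and transcripts came from GENCODE M21, which named 42462 of 43430 identifiers. Exon lengths were merged over all transcripts of a gene.

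Counts were tested with edgeR 4.0.16 (R 4.3.3): TMM factors, filterByExpr with a minimum count of 10, quasi-likelihood F test by group, two-sided, Benjamini-Hochberg over 13005 genes at 0.05. CPM use TMM-scaled library sizes. SE is the absolute log2 fold change over the root of F. The 95% interval uses the fit's t distribution. The script was tested on simulated counts. Members, lists and tests were chosen with earlier results of these data known. Genes named are all mtDNA members, the 2 highest and 2 lowest log2 fold changes per complex, the highest member per length, isoform families, members with no count and up to 2 genes per other pathway list. Outside this rule, and after their values were seen, Atp5b, Atp5g2, Atp5g3, Atp5j, Uqcrc1, Ndufv2, Ndufs7, Ppargc1a, Esrra and the cell type markers were named. Each library pools 3 mice, so p-values measure the spread between pools. Alternatives used DESeq2 1.42.0, limma 3.58.1 (voom), other scalings and filters, an endothelial covariate and libraries left out.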

Additional observations from a re-analysis of the deposited data

How the results depend on the processing

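Under all 15 alternatives 0 members were called higher and 0 lower, with a smallest adjusted p of 0.134. The number of all genes called, 159 in edgeR, was 756 with no filter on low counts (20868 genes tested), 435 with DESeq2, and 24 to 148 when each library was left out in turn, the lowest values being 24 without M2, 27 without M5 and 42 without M6. Without M3 and M6 together, an alternative chosen after seeing the data, it was 71. With the endothelial covariate the median log2 fold change was 0.11 for nuclear members and 0.32 for mtDNA members, against −0.03 and −0.14. The cause of these moves was not tested. Leaving out each library gave medians of −0.13 to 0.04 for nuclear and −0.33 to 0.13 for mtDNA members. On total counts without TMM factors the ratio of the summed level of nuclear members, hypercapnia over room air, turned from below to above 1 in every complex: from 0.968 to 1.01 in I, 0.979 to 1.02 in II, 0.998 to 1.04 in III, 0.965 to 1.01 in IV and 0.993 to 1.04 in V. That scaling moved the median log2 fold change of all genes from 0.01 to 0.07. No paired analysis was possible because the columns carry no replicate number that the labels share between groups. Low counts limit the 5 mtDNA genes with duplicated sequence, and Cox4i2, Cox7a1 and Cox7b2, which were not tested or had wide intervals. For the 5 mtDNA genes the treatment of reads with several matches is also not given.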
